A study of Mus musculus with 6 samples.

Results

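The genes described here are the interleukin-6 (IL-6) family cytokines made by macrophages and the receptors and signalling proteins that read them, 10 genes chosen by symbol: Lif, Osm, Il6, Il11, Il6ra, Il6st, Lifr, Osmr, Stat3 and Socs3. All 10 were among the 40773 genes of the count table. After a filter on low counts 11498 genes were tested, and 7 of the 10 were among them. The sequenced RNA came from RAW264.7, a macrophage line derived from a mouse tumour, whose genotype is labelled plain. In the group called LPS plus 3A2, 3 cultures received lipopolysaccharide (LPS) at 100 ng/mL, a part of the bacterial wall that Toll-like receptor 4 senses, together with 3A2, an antibody that neutralizes the membrane protease MMP14, at 50 µg/mL. In the LPS group, 3 cultures received LPS alone at the same dose. Both lasted 24 h, so every library came from LPS-treated cells, and cells without LPS or with a control antibody were not analysed here. The comparison asks which mRNAs of the family differed when 3A2 was added. Effects of neutralizing MMP14 and of adding an antibody as such cannot be told apart in it.

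Cytokines of this family signal through a shared receptor chain, gp130, encoded by Il6st. IL-6 and IL-11 first bind their own alpha chains and then bring gp130 chains together, while LIF pairs gp130 with the LIF receptor and oncostatin M in the mouse pairs it mainly with the oncostatin M receptor. Janus kinases bound to gp130 then phosphorylate the transcription factor STAT3, which switches on Socs3, and the SOCS3 protein binds gp130 and shuts the signal off. Macrophages given LPS are a known source of these cytokines and also respond to IL-6 themselves.

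Lif and Osm measured 1.19-fold and 1.18-fold in cells given LPS plus 3A2 relative to LPS, each with its 3 LPS plus 3A2 libraries above the 3 LPS libraries. Il11, at 5 to 21 counts a library, measured 2.14-fold, but it was tested only because of the group in which it was higher. The ligand Il6, at 0 to 4 counts a library, overlapped between the groups, as did the receptor chains Il6ra and Il6st, Stat3 and Socs3. Over all genes, none of the 7 tested members had a Benjamini-Hochberg adjusted p under 0.05 in edgeR's quasi-likelihood test, a rule that called 0% of all genes tested. At an unadjusted p under 0.05 by that test there were 3 of 7, all higher, against a background of 6.51% of all genes in either direction, 3.43% higher and 3.09% lower. Leaving out each library in turn gave 1 to 3 members, with Lif alone left without LPS replicate 3, and a background of 3.92% (without LPS replicate 2) to 15.01% (without LPS plus 3A2 replicate 2). Groups did not overlap for 3 of 7, against 12.3% of all genes in either direction, 5.84% with LPS plus 3A2 higher and 6.46% with it lower. Both counts include Il11, which passed the filter only through the group in which it was higher, and without it each is 2 of 6. The members were also chosen with earlier results of these data known, so these counts describe the list and nothing is drawn from their excess over the background. The median log2 fold change of the 7 was -0.046 (-0.055 without Il11), against 0.0017 for all genes tested.

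Promoter sequences of the ligands Lif, Il11 and Il6 and of the feedback gene Socs3 are shown so that the letters near their starts can be compared. They run from 250 bases before to 50 bases after a RefSeq start in the mouse assembly GRCm38.p6 and were matched by symbol, with entries for 9 of the 10 genes and none for Osm. Capitals mark letters matching TGANTCA (a loose form of the AP-1 motif) or GGNNTTTCC (a form of the NF-κB motif). They also mark TTNNGCAA (a form of the C/EBP motif) and TTCNNNGAA (the STAT motif), all searched on both strands.
Lif, chr11:4257318-4257617, + strand: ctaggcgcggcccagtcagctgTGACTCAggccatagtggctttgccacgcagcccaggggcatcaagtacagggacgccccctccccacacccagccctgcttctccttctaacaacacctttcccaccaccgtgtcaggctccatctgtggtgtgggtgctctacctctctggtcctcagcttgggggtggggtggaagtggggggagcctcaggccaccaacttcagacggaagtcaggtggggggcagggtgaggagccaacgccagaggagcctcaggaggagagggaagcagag
Il11, chr7:4778092-4778391, - strand: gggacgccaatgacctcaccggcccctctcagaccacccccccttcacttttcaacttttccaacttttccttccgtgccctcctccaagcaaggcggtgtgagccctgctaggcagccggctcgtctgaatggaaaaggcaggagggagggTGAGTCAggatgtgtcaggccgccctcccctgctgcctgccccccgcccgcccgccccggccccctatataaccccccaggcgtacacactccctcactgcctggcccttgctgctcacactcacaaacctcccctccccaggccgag
Il6, chr5:30012864-30013163, + strand: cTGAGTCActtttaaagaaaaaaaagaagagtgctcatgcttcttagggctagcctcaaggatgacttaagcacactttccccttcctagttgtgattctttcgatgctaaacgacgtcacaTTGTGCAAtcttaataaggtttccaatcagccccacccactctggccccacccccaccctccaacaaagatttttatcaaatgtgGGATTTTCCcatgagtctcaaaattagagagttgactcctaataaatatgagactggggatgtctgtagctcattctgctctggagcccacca
Socs3, chr11:117969317-117969616, - strand: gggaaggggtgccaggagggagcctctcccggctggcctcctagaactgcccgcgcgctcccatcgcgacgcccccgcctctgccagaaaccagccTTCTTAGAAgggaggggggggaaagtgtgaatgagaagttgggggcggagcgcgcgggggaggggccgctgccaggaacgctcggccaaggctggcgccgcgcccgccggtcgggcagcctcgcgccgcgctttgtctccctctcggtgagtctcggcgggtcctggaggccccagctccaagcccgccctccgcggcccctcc
The window of Lif held TGACTCA at -228 to -222 from the start, and that of Il11 held TGAGTCA at -98 to -92. A second listed start of Il11 held none of the 4 motifs. In Il6 the window held TGAGTCA at -249 to -243, TTGTGCAA at -128 to -121 and GGATTTTCC at -43 to -35. Socs3 held TTCTTAGAA at -154 to -146. The windows of Il6ra, Il6st, Lifr and Stat3 held none of the 4 motifs, and that of Osmr held TGATTCA at 4 to 10. Of 32851 RefSeq promoter windows of 300 bases, 7.81% held the AP-1 letters, 5.82% the NF-κB letters, 10.8% the C/EBP letters and 8.3% the STAT letters. No overlap occurred between different motifs in these windows, and a match is only a description of the letters. The motifs were chosen and revised after their matches in the members were seen, so nothing is drawn from the members against these shares.

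Lif, which encodes leukemia inhibitory factor, was the most abundant ligand of the family per length. In CPM, read counts scaled to one common library total, it measured 230.6, 239.5 and 224.8 CPM with LPS plus 3A2, and 184.5, 197.1 and 203.4 CPM with LPS. The lowest culture with 3A2 stood above the highest culture without it. The mean was 232 ± 7.41 CPM with LPS plus 3A2 and 195 ± 9.6 CPM with LPS (SD, n = 3 each), or 1.19-fold with a 95% interval of 1.08 to 1.31. Lif had the smallest p-value of the 7 and ranked 14 among all genes, and edgeR gave it 0.00106 as unadjusted p and 0.719 as adjusted p. On the CPM values a two-sided permutation test, exact, gave p = 0.1, the smallest that 3 against 3 libraries allow. Counting error was small here, about 2.67% of a library's Lif count. The value is a level in the whole culture, so more producing cells and more mRNA per cell cannot be told apart.

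Library composition was set beside the Lif values. As an index of composition, the mean log2 CPM of 13 mitochondrially encoded mRNAs minus that of 80 ribosomal protein mRNAs was taken relative to its mean over all libraries. It was 0.097, -0.15 and 0.57 in the LPS plus 3A2 libraries, and -0.081, -0.21 and -0.22 in the LPS libraries. The index was highest in LPS plus 3A2 replicate 3, whose Lif level was the lowest of its group. All 13 mitochondrial mRNAs had a log2 fold change above 0 (median 0.27), against 5795 of the 11498 genes tested. The index was thus partly tied to the group, and a fit with it cannot fully separate them. With the index as a covariate 23 genes passed over all genes, and 8.33% of all genes were under 0.05 unadjusted. Lif was among the 23, with an adjusted p of 0.00511 by edgeR and a log2 fold change of 0.30, its SE being 0.0556. Under the other 13 settings its log2 fold change was 0.21 to 0.28 and its adjusted p 0.0973 to 0.996. At an unadjusted p it stayed under 0.05 in 14 of 14 settings. The index did not act one way on all genes: with it Osm and Il11 lay above 0.05 unadjusted, and so did most pathway genes that were under 0.05 without it, as given with each list. Others, with Il6st, Ptpn2, Ier3 and Adam17 among them, came under 0.05 unadjusted with it.

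**Figure D1:**
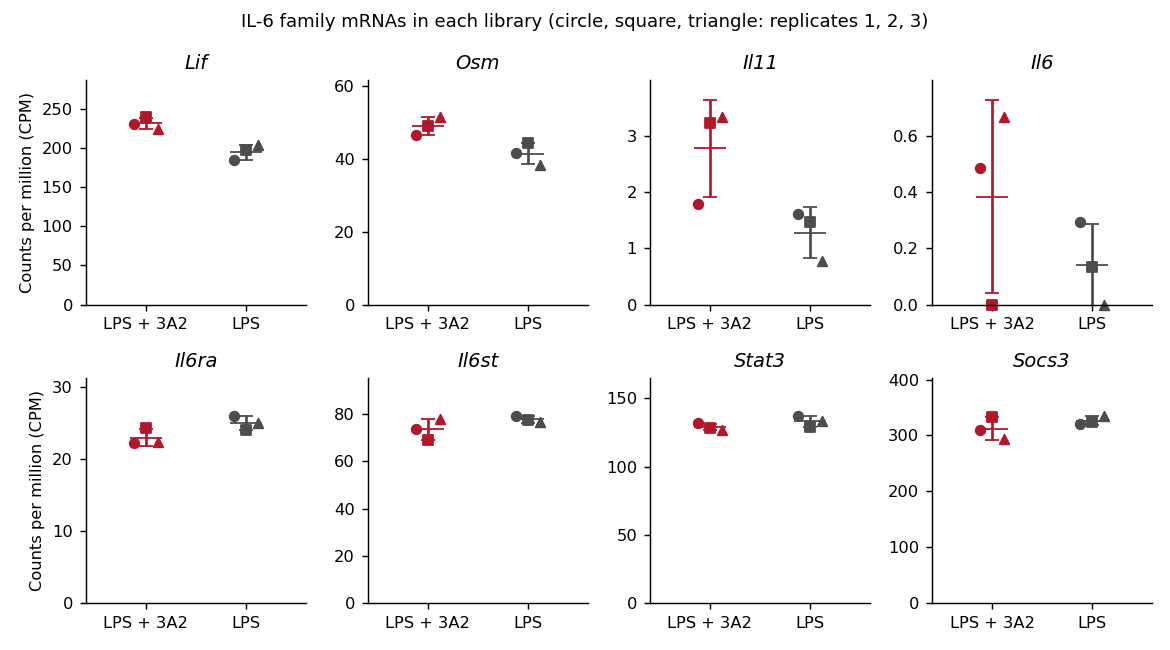
CPM (vertical axes, from 0) of 8 family genes in each library with LPS plus 3A2 (red, left) and LPS (grey, right), with points for cultures, a horizontal mark for the mean and bars of 1 SD. The 3 red points lie above the 3 grey points for Lif, Osm and Il11 and overlap with them for the other 5 genes. Il11 had low counts and was tested only because of the group in which it was higher, so nothing is drawn from its points lying apart.

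Osm, which encodes oncostatin M, is the next protein-coding gene to Lif on chromosome 11, with 0 others between them in the RefSeq annotation of GRCm38.p6. It measured 46.5, 48.9 and 51.3 CPM with LPS plus 3A2, and 41.5, 44.2 and 38.3 CPM with LPS. The groups did not overlap, with a gap smaller than the SD within either group (2.42 CPM with LPS plus 3A2 and 2.95 CPM with LPS). The fold change was 1.18 (95% interval 1.03 to 1.35), and edgeR's p was 0.0195 unadjusted and 0.721 adjusted. Osm ranked 310 by p among all genes, and its exact two-sided permutation p was 0.1. It stood under 0.05 unadjusted in 11 of 14 other settings, and it stood above 0.05 with DESeq2 (0.052), with the composition index (0.067) and without LPS replicate 3 (0.0976). Lif and Osm kept nearly the same proportion: the log2 ratio of their counts within a library averaged 2.25 ± 0.0993 with LPS plus 3A2 and 2.24 ± 0.147 with LPS (SD, n = 3 each).

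Il11, which encodes interleukin-11, was detected only at a low level. Its counts were 11, 21 and 20 with LPS plus 3A2, and 11, 11 and 5 with LPS, or 1.78, 3.23 and 3.33 CPM against 1.61, 1.47 and 0.766 CPM. LPS plus 3A2 replicate 1 lay close to LPS replicate 1, and the other LPS plus 3A2 libraries lay well above all 3 LPS libraries. The fold change was 2.14 (95% interval 1.21 to 3.79), and edgeR's p was 0.0118 unadjusted and 0.719 adjusted. The summed counts were 52 with LPS plus 3A2 and 27 with LPS, a ratio of 2.12 with an exact counting interval of 1.31 to 3.51. Il11 reached the filter's level of 1.54 CPM in 3 of 3 LPS plus 3A2 libraries and 1 of 3 LPS libraries. It was thus tested only because of the group in which it was higher. Nothing is drawn from its interval, from its groups lying apart or from its p-values under any setting. Its unadjusted p was under 0.05 in 9 of 13 settings that gave a value, with log2 fold changes of 0.85 to 1.33. It missed 0.05 without LPS replicate 3 (0.0622), without LPS plus 3A2 replicate 2 (0.0517) or replicate 3 (0.0512), and with the composition index (0.0573).

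Il6, which gives the family its name and is a classical LPS-induced cytokine, was barely detected. The counts were 3, 0 and 4 with LPS plus 3A2, and 2, 1 and 0 with LPS. Over a group this is 0.372 CPM with LPS plus 3A2 (exact 95% interval 0.15 to 0.767) and 0.145 CPM with LPS (0.0299 to 0.423), and these intervals cover counting error only. The ratio was 2.57, for which counting alone allows 0.586 to 15.4. Its permutation p was 0.4 (exact, two-sided). A difference in Il6 was not detectable at this depth. Since 0 counts can arise where up to 3 are due, the libraries with 0 allow levels of up to 0.459 CPM in LPS plus 3A2 replicate 2 and 0.466 CPM in LPS replicate 3.

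The receptor mRNAs were those of gp130 and the IL-6 receptor, with almost none of the other chains. Il6st, the shared gp130 chain, measured 73.7, 69.0 and 78.0 CPM with LPS plus 3A2, and 79.4, 77.3 and 76.5 CPM with LPS. The groups overlapped, and the fold change of 0.946 had a 95% interval of 0.844 to 1.06. Il6ra, the alpha chain that binds IL-6, measured 22.2, 24.3 and 22.3 CPM with LPS plus 3A2, and 26.0, 24.0 and 25.0 CPM with LPS. These groups overlapped as well, at 0.918-fold (0.777 to 1.08). The unadjusted p by edgeR was 0.32 for Il6st and 0.297 for Il6ra. Of 14 other settings 1 put Il6st under 0.05: with the composition index edgeR's p was 0.0478 unadjusted. Its log2 fold change was then -0.16, against -0.080 without the index.

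Lifr and Osmr, which encode the chains that pair with gp130 for LIF and oncostatin M, were at or near 0. Lifr had 0, 0 and 0 counts with LPS plus 3A2, and 0, 1 and 0 counts with LPS. Osmr had 0 counts in all 6 libraries. At these depths a library with 0 counts allows up to 0.404 to 0.495 CPM. RAW264.7 cells in both groups held Lif and Osm mRNA together with Il6st mRNA, while the mRNAs of the partner chains for those ligands were at most at this limit. No fold change is given for Lifr or Osmr.

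Stat3, the transcription factor downstream of gp130, measured 131.8, 128.3 and 127.1 CPM with LPS plus 3A2, and 137.4, 129.1 and 133.3 CPM with LPS. The groups overlapped, and the fold change was 0.969 (95% interval 0.877 to 1.07), with an unadjusted p of 0.511 by edgeR. Socs3, the feedback inhibitor and a direct STAT3 target, measured 310.2, 333.7 and 293.1 CPM with LPS plus 3A2, and 320.3, 323.3 and 335.6 CPM with LPS. Its fold change was 0.957 (0.872 to 1.05), with an unadjusted p of 0.337. With 3A2 the Socs3 values spread more widely (SD 20.4 CPM) than with LPS (SD 8.1 CPM). The intervals of Il6ra, Il6st, Stat3 and Socs3 all lay within 1.5-fold in either direction. An interval that holds 1 does not show that the mRNA was the same in both groups.

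**Figure D2:**
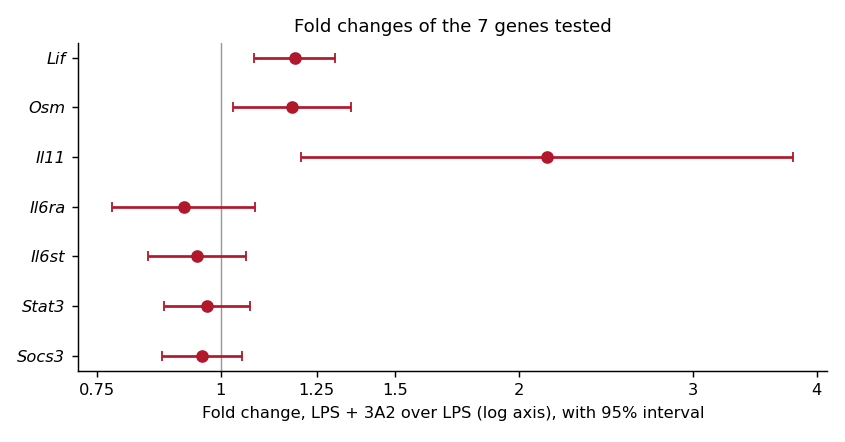
Fold change of LPS plus 3A2 over LPS (horizontal log axis) for the 7 tested genes, with points for edgeR's estimate and bars for the 95% interval. The intervals of Lif (1.08 to 1.31) and Osm (1.03 to 1.35) lie above 1, and those of the receptor chains, Stat3 and Socs3 span it. That of Il11 (1.21 to 3.79) also lies above 1, but Il11 was tested only because of the group in which it was higher.

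The ratio of a ligand to Socs3 within a library does not depend on how the libraries are scaled, and this ratio was chosen after its values were seen. The log2 ratio of Lif to Socs3 counts was -0.43, -0.48 and -0.38 with LPS plus 3A2, and -0.80, -0.71 and -0.72 with LPS. The groups did not overlap, and the means differed by 0.31 on the log2 scale. For Osm over Socs3 the log2 ratio was -2.74, -2.77 and -2.51 with LPS plus 3A2, and -2.95, -2.87 and -3.13 with LPS. These ratios also did not overlap and differed by 0.31. For Lif over Il6st the mean log2 ratio was 1.66 ± 0.135 with LPS plus 3A2 and 1.33 ± 0.0994 with LPS (SD, n = 3 each).

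Levels of different genes were compared per length, as CPM per kilobase of exon in the GENCODE M21 annotation, which may not be the annotation of the counts. The order was the same in both groups: Socs3, Lif, Osm, Stat3, Il6st, Il6ra, Il11, Il6. Socs3 stood at 108 ± 7.05 with LPS plus 3A2 and 113 ± 2.8 with LPS in this unit. Lif stood at 53.3 ± 1.7 with LPS plus 3A2 and 44.8 ± 2.21 with LPS, a level at or above that of 92.9% of tested genes. Osm stood at 21.5 ± 1.07 with LPS plus 3A2 and 18.2 ± 1.3 with LPS. Stat3 stood at 13.6 ± 0.257 with LPS plus 3A2 and 14.0 ± 0.436 with LPS. Il6st stood at 6.63 with LPS plus 3A2 and 7.0 with LPS, and Il6ra at 2.65 with LPS plus 3A2 and 2.89 with LPS. The libraries of neighbours in this order did not overlap down to Il11 against Il6, while Il6, Lifr and Osmr overlapped at 0.

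**Figure D3:**
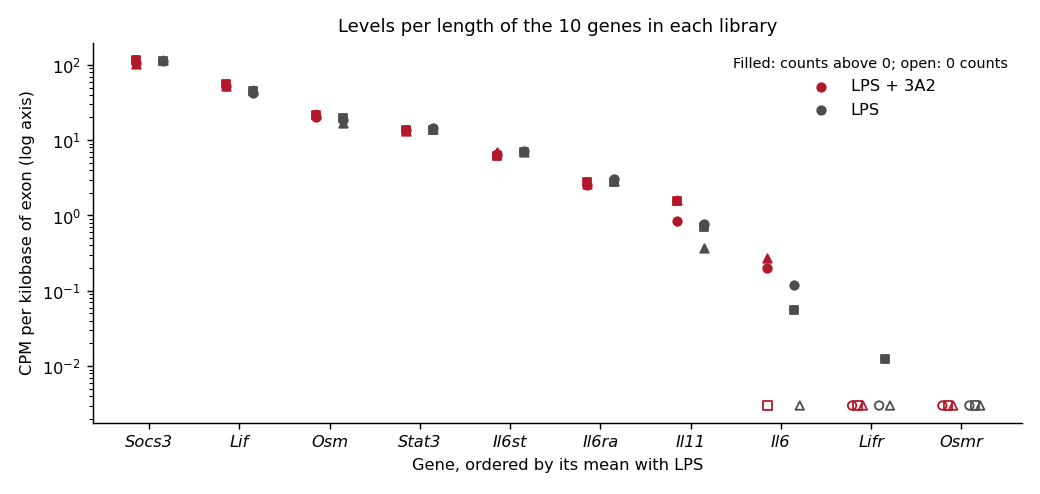
CPM per kilobase of exon (vertical log axis) of the 10 genes, ordered by their mean with LPS, in each library with LPS plus 3A2 (red, left of each pair) and LPS (grey, right). Open symbols are libraries with 0 counts, drawn at the foot of the axis, and they cover all 6 libraries of Osmr.

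Genes whose pattern over the libraries was most like that of Lif were Thumpd1, Psmb7, Mief2, Errfi1 and Dus2. Their Pearson correlations with Lif, on log2 CPM over 6 libraries and among 11487 genes with a count in every library, were 0.992, 0.991, 0.984, 0.977 and 0.974. These libraries share the group difference and their depth, and with 6 points many genes reach high values. Psmb7, a proteasome subunit, stood at 1.11-fold (95% interval 1.00 to 1.23), Thumpd1 at 1.14-fold (0.982 to 1.32) and Dus2, a tRNA dihydrouridine synthase, at 1.13-fold (0.98 to 1.3). Errfi1, a feedback inhibitor of the EGF receptor, stood at 1.18-fold (0.958 to 1.44) and Mief2, a mitochondrial fission factor, at 1.21-fold (0.93 to 1.58). Of these 5, Psmb7 alone had an unadjusted p under 0.05 by edgeR (0.0438). The 5 were picked by a likeness that includes the group difference, so nothing is drawn from their fold changes or p-values.

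Other ligands and receptors of the IL-6 and IL-12 families were mostly below the filter, with 4 of 19 listed genes tested. None of the 4 had an unadjusted p under 0.05, and the median log2 fold change was -0.034 (0.016 without Il23a). Il23a, the specific chain of interleukin-23, measured 1.18 ± 0.0484 CPM with LPS plus 3A2 and 2.02 ± 0.163 CPM with LPS (SD, n = 3 each), or 0.588-fold (95% interval 0.333 to 1.04). It reached the filter's level in 0 of 3 LPS plus 3A2 libraries and 3 of 3 LPS libraries, so it was tested only because of the group in which it was higher, and nothing is drawn from its groups lying apart. The other 3 tested genes of this list overlapped between groups. Ebi3, the subunit shared by interleukin-27 and interleukin-35, stood at 1.05-fold (0.885 to 1.23), and Il27, its partner in interleukin-27, at 0.944-fold (0.655 to 1.36). Il11ra1, the alpha chain for IL-11, averaged 0.218 CPM with LPS plus 3A2 and 0.486 CPM with LPS and was not tested.

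Genes of gp130 signalling lay below 0 in 14 of 21 tested members on the log2 scale, against 5703 of the 11498 genes tested. Their median was -0.062, and 1 of 21 had an unadjusted p under 0.05 by edgeR. That gene was Ptpn6, which encodes the phosphatase SHP-1, a negative regulator of Janus kinases in blood cells. It measured 220 ± 9.14 CPM with LPS plus 3A2 and 249 ± 13.2 CPM with LPS (SD, n = 3 each), or 0.882-fold (95% interval 0.802 to 0.97). Ptpn2, another phosphatase of this pathway, stood at 0.873-fold (0.738 to 1.03) and Stat5a at 0.888-fold (0.756 to 1.04). With the composition index edgeR's unadjusted p was 0.0342 for Ptpn6 and 0.024 for Ptpn2, at log2 fold changes of -0.12 and -0.30. The shares at an unadjusted p compare with 6.51% of all genes, and 0 of the 21 passed an adjusted p of 0.05.

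Genes known as STAT3 targets were split, with 15 of 29 tested members above 0 and 14 below and a median log2 fold change of 0.0026. By edgeR 4 had an unadjusted p under 0.05, with 2 higher and 2 lower, against the 6.51% of all genes, and 0 passed adjusted. The transcription factor gene Batf, 1 of the 29, passed the filter only through the LPS group, in which it was higher. Without Batf the median log2 fold change was 0.0084. Saa3, an acute-phase protein, measured 7.25 ± 1.75 CPM with LPS plus 3A2 and 10.7 ± 1.32 CPM with LPS, or 0.682-fold (95% interval 0.514 to 0.906). Cebpb, a transcription factor of macrophage activation, stood at 0.877-fold (0.79 to 0.973). Il4ra, the ligand-binding chain for interleukin-4, stood at 1.28-fold (1.03 to 1.6), and the survival gene Bcl2, named after its value was seen, at 1.29-fold (1.03 to 1.63). The most abundant by counts, the early response gene Ier3, stood at 1.05-fold (0.965 to 1.14). With the composition index none of the 4 was under 0.05 by edgeR: the unadjusted p was 0.133 for Saa3, 0.268 for Cebpb, 0.105 for Il4ra and 0.0652 for Bcl2. The log2 fold change of Cebpb was -0.061 with the index, against -0.19 without it.

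Regulators of Il6 transcription and mRNA stability had 8 of 18 tested members above 0 and 10 below, and their median log2 fold change was -0.0025. By edgeR 2 had an unadjusted p under 0.05, against the 6.51% of all genes, and 0 passed adjusted. Zc3h12a encodes Regnase-1, a nuclease that degrades Il6 mRNA. It measured 39.7 ± 4.13 CPM with LPS plus 3A2 and 46.3 ± 1.2 CPM with LPS (SD, n = 3 each), or 0.858-fold (95% interval 0.744 to 0.989). Traf6, an adaptor ligase of Toll-like receptor signalling, stood at 1.19-fold (1.03 to 1.37), the adaptor Myd88 at 0.913-fold (0.785 to 1.06) and the LPS co-receptor Cd14 at 0.981-fold (0.901 to 1.07). With the composition index the log2 fold change of Zc3h12a was -0.10 and that of Traf6 0.14, with unadjusted p of 0.326 and 0.197 by edgeR.

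Of the 4 genes for shedding of family receptors 1 had an unadjusted p under 0.05 by edgeR, against the 6.51% of all genes, and 0 passed adjusted. Their median log2 fold change was 0.06. The gene under 0.05 was Adam10, a membrane sheddase, at 1.15-fold (1.03 to 1.28), and with the composition index its log2 fold change was 0.078, against 0.20 without it, at an unadjusted p of 0.252. Adam17, another sheddase, stood at 1.01-fold (0.908 to 1.12), but below 0 on the log2 scale in 4 of 14 other settings, at -0.13 and an unadjusted p of 0.0175 with the index. Its cofactor genes stood at 1.08-fold (0.792 to 1.47) for Rhbdf1 and 1.00-fold (0.898 to 1.12) for Rhbdf2.

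**Figure D4:**
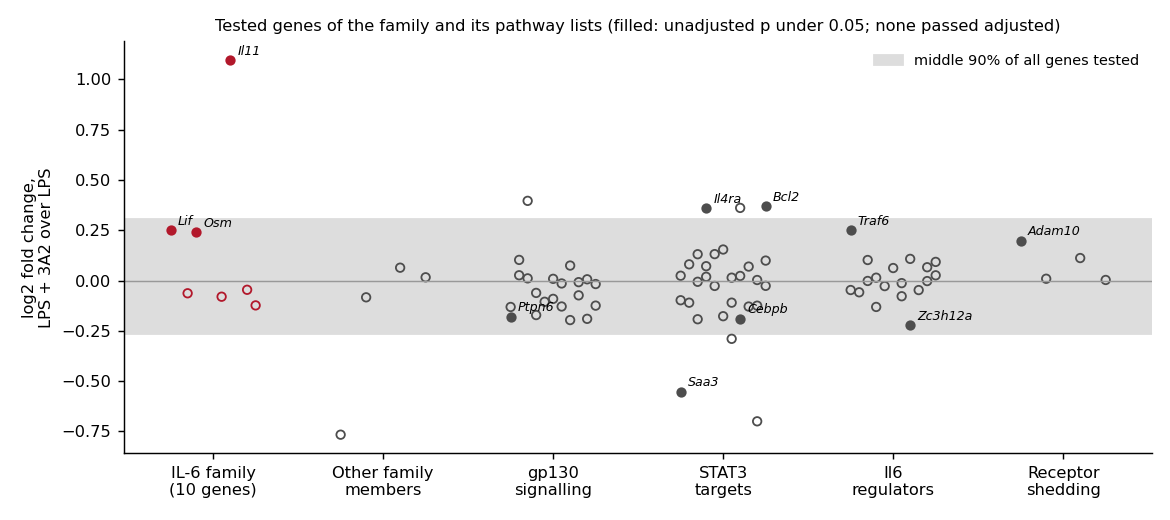
log2 fold change of LPS plus 3A2 over LPS (vertical axis) for tested genes of the family (red) and of the 5 pathway lists (grey), with filled points for an unadjusted p under 0.05 and a grey band for the middle of all tested genes, from -0.27 to 0.31. Lif and Osm lie inside the band near its upper edge, and Il11 lies above it at 1.10. Il11 was tested only because of the group in which it was higher.

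The libraries held 6218086, 6537419 and 6060732 counts with LPS plus 3A2, and 6844331, 7432553 and 6431096 with LPS. Macrophage markers were present, with 8 of 9 tested, and 7 of these 8 lay below 0, against 5703 of the 11498 genes tested. The 9 markers summed to 5211 to 5563 CPM with LPS plus 3A2 and 6036 to 6135 CPM with LPS. Most of this was Lyz2, the macrophage lysozyme, at 0.871-fold (95% interval 0.805 to 0.943). Csf1r, the receptor for the macrophage growth factor, stood at 0.878-fold (0.802 to 0.962) and Spi1, the lineage transcription factor, at 0.864-fold (0.769 to 0.971). The other tested markers stood nearer to 1, between 0.923-fold and 1.03-fold. Lyz2, Csf1r and Spi1 were named after their values were seen. They were the 3 of 8 under 0.05 unadjusted by edgeR, against 6.51% of all genes. None of the 3 passed adjusted by edgeR with all libraries and no covariate. With the composition index Lyz2 passed (adjusted p 0.0198), while Spi1 had a log2 fold change of -0.070, against -0.21 without it, and an unadjusted p of 0.303. The marker sum thus lay lower in the group where Lif and Osm lay higher, and its part in the result was not tested. No library held more than 0.766 CPM of fibroblast markers in sum, 0.668 CPM of lymphocyte markers or 2.67 CPM of epithelial and endothelial markers. Epcam, Cd3e and Col1a2 were at 0 in all 6 libraries.

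**Figure D5:**
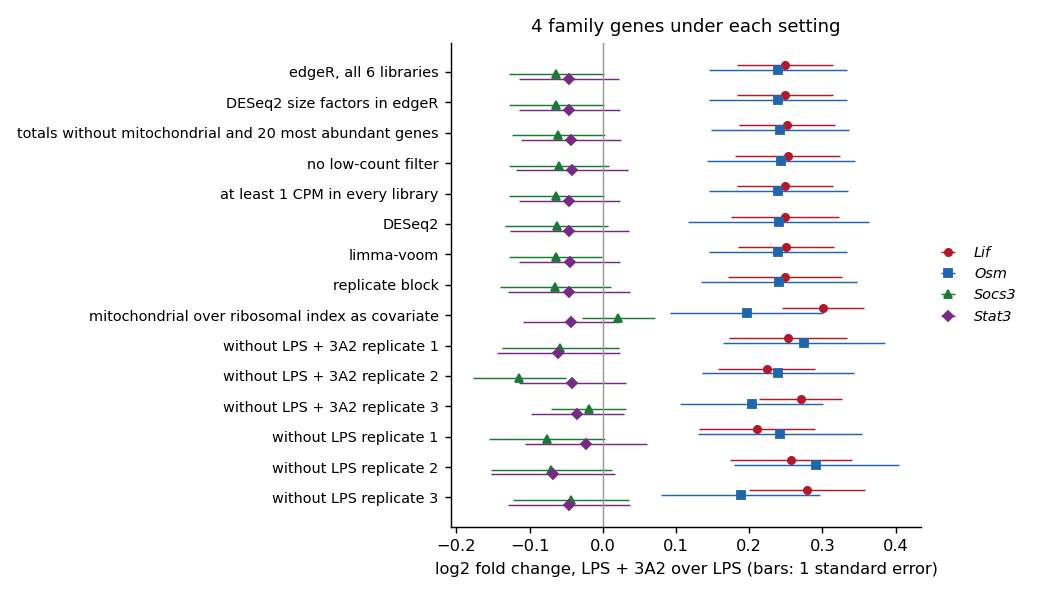
log2 fold change of LPS plus 3A2 over LPS (horizontal axis, bars of 1 standard error) for Lif, Osm, Socs3 and Stat3 under the edgeR test of all 6 libraries and 14 other settings. Lif stays between 0.21 and 0.30 and Osm between 0.19 and 0.29, while Socs3 lies between -0.11 and 0.02 and Stat3 between -0.07 and -0.02.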

How the data were processed

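RNA of 6 RAW264.7 cultures, 3 with LPS plus 3A2 and 3 with LPS, was rRNA-depleted and sequenced as strand-specific paired-end libraries, per the labels' protocols. The deposited table holds raw counts of reads for each gene symbol, 1 column a library. HISAT2, edgeR and the human build GRCh38 are named without version or role, per the submitters' processing notes, although 39282 of the 40773 symbols match mouse RefSeq genes. How reads were counted, on which annotation and strand, is not given in the sources used here, so overlapping antisense genes are uncertain. Cells typed into 3 unnamed columns were not used, and 0 rows named no gene.

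The labels gave groups and replicate numbers and call the cultures biological triplicates. Counts were filtered with filterByExpr (10 counts in a median library, or 1.54 CPM, in at least 3 libraries), scaled by TMM and put through the robust quasi-likelihood F test of edgeR 4.0.16 in R 4.3.3, two-sided, with Benjamini-Hochberg adjustment over all 11498 genes and a threshold of 0.05. CPM used TMM-scaled totals, and summed groups used unscaled totals. The test was tried on simulated data. Libraries of a group differed beyond sampling noise (chi-square over its degrees of freedom, 3.33 to 22.0). The members and lists were chosen with earlier results of these data known, and the motifs were chosen and revised after their matches in the members were seen. Named genes were the 10 members, the 3 smallest p-values and the most abundant tested gene of each pathway list, and the 5 genes most like Lif; Bcl2, Il11ra1, Batf, Rhbdf2, Lyz2, Csf1r, Spi1, Epcam, Cd3e and Col1a2 were added after their values were seen. Alternatives were DESeq2 size factors, no low-count filter, a minimum of 1 CPM in every library, totals that leave out mitochondrial genes and the top 20, DESeq2 1.42.0, limma-voom 3.58.1, a replicate block, a composition index as covariate, and leaving out each library.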

Additional observations from a re-analysis of the deposited data

How the results depend on the processing

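Of 461 comparisons between a named gene under all libraries and under another setting, 449 kept direction and side of the threshold, 2 passed only under the composition index and 10 changed sign. The genes that passed were Lif, at an adjusted p of 0.00511, and Lyz2, at 0.0198, both by edgeR, so the count of family members called was 1 with the index and 0 under the other 13 settings. The count over all genes, 0 with edgeR, was 16 without a filter, 1 with DESeq2, 1 with the replicate block, 23 with the index, and 0 to 24 when leaving out each library in turn, the highest without LPS plus 3A2 replicate 2; the cause was not tested. The correlations of same-numbered deviations from the group means were -0.011, -0.013 and -0.17, and no library correlated best with its own number. Such deviations sum to 0 within a group, so the correlations cannot show whether same-numbered cultures were handled together. With the block the log2 fold change of Lif was 0.25, at an adjusted p of 0.915 by edgeR. Sign changes came with the index for Socs3 (0.021), Myd88 (0.011), Cd14 (0.046) and Adam17 (-0.13), and, leaving out each library in turn, for Adam17 (-0.063 to 0.070), Il27 (-0.26 to 0.14) and Cd14 (-0.063 to 0.018), all as log2 fold changes of genes not called. Il11 had no value at a minimum of 1 CPM in every library. Depth limits Il6, Il11, Lifr and Osmr, which had at most 21 counts in a library.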
